A study of Mus musculus with 11 samples.

Results

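The genes of the vascular endothelial growth factor (VEGF) system were followed in dendritic cells sorted from mouse spleen. They are the receptor genes Kdr, Flt1 and Flt4, the neuropilin genes Nrp1 and Nrp2, and the ligand genes Vegfa, Vegfb, Vegfc and Pgf. These 9 genes, of 22180 tested, were listed by name, and each was read by the only probeset that names it alone. The list was drawn up when Kdr was already known to be higher in these lymphoma-exposed samples, so the difference of Kdr is given as a description, with the error of the fit and no p-value. The values are log2 expression from 1-colour Affymetrix arrays with 1 array per sample.

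The naive group holds 6 arrays of splenic dendritic cells from C57BL/6 mice. The exposed group holds 5 arrays of the same cells from C57BL/6 mice that had received Eµ-Myc lymphoma cells, a B cell lymphoma in which an immunoglobulin enhancer drives Myc. Both groups were sorted on CD11c and MHC class II to a stated purity above 95%, and lymphoma made up 10 to 36% of splenic lymphocytes on average in the recipients. Age, sex and the time after transfer are not given in the sources used here, nor whether each array is a separate mouse, so the p-values reflect only how far these samples spread, which may be technical.

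VEGF ligands are secreted dimers that bind receptor tyrosine kinases, chiefly on endothelial cells, where they drive vessel growth and permeability. Kdr (VEGFR2) is the main signalling receptor for VEGF-A. Flt1 (VEGFR1) binds VEGF-A tightly but signals weakly, also takes VEGF-B and placental growth factor, and is found on monocytes and macrophages. Flt4 (VEGFR3) serves VEGF-C in lymphatic vessels, and the neuropilins are co-receptors that also bind class 3 semaphorins.

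Promoters are shown for the receptor with the largest difference, for the other gene whose groups did not overlap, and for the ligand with the widest spread. All 9 genes matched the RefSeq promoter table (GRCm38.p6). Each line gives the 250 bases before the start site in that table, 5′ to 3′. Capitals mark Sp1 boxes (GGGCGG), the cores of hypoxia-inducible factor (HIF) sites (ACGTG or GCGTG), AP-1 sites (TGANTCA) and NF-kB sites, all searched on both strands. The Kdr window is chr5:75978456-75978705 and the Vegfa window chr17:46032378-46032627, both on the minus strand, and the Nrp2 window is chr1:62703067-62703316 on the plus strand.
Kdr: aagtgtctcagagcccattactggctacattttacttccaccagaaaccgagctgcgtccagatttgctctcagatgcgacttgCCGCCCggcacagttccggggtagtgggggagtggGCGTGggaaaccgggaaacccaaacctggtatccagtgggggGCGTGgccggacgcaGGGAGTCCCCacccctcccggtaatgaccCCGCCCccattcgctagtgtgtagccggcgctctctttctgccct
Nrp2: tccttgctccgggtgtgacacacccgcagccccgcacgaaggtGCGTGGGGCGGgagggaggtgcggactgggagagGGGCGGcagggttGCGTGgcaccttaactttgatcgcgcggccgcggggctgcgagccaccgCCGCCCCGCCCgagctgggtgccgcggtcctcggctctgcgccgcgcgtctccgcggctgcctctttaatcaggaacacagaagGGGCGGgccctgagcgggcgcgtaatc
Vegfa: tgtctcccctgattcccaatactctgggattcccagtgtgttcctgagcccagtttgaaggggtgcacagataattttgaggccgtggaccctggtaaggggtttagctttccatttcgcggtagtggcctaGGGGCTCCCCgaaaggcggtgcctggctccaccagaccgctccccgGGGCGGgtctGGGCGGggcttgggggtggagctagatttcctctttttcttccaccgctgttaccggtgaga

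The Kdr window holds 2 Sp1 boxes, 2 GCGTG cores and 1 NF-kB match, and neither ACGTG nor an AP-1 match. Nrp2 holds 5 Sp1 boxes, of which the first directly follows one of its 2 GCGTG cores and another pair shares a base. Vegfa holds 2 Sp1 boxes and 1 NF-kB match in the window shown, the one of the more upstream start, and the window of its other start in the table holds 1 Sp1 box, 1 ACGTG and 1 GCGTG core. Among 32817 promoter windows of the same length, 32.7% hold an Sp1 box, 16.6% ACGTG, 28.1% GCGTG, 6.75% an AP-1 match and 5.0% an NF-kB match. These matches describe the letters and were not tested as binding sites.

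Kdr differed most of the 9 genes. On the naive arrays it lay between 7.34 and 7.78 with a median of 7.60, and on exposed arrays 1, 2, 3, 4 and 6 it was 8.90, 9.56, 8.22, 8.60 and 8.12 (probeset 17448924, chromosome 5). Every exposed array was above every naive array, with array 2 the highest. The means were 7.59 ± 0.20 (SD, n = 6) and 8.68 ± 0.58 (SD, n = 5), so that exposed cells were higher by 1.09 ± 0.21 (SE; 95% limits 0.64 to 1.55), which is 2.13-fold. In sorted cells such as these, more Kdr-positive cells and more Kdr RNA per cell cannot be told apart.

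The exposed arrays also varied more among themselves in Kdr than the naive arrays did, with an SD 2.91 times as large. The exposed SD was above that of 99.4% of all genes, and the naive SD above that of 85.3%. The difference was 1.38 among arrays numbered 1 to 3 and 0.70 among arrays numbered 4 to 6, number sets that differed in 731 genes with group in the limma fit and that the labels do not explain.

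**Figure D1:**
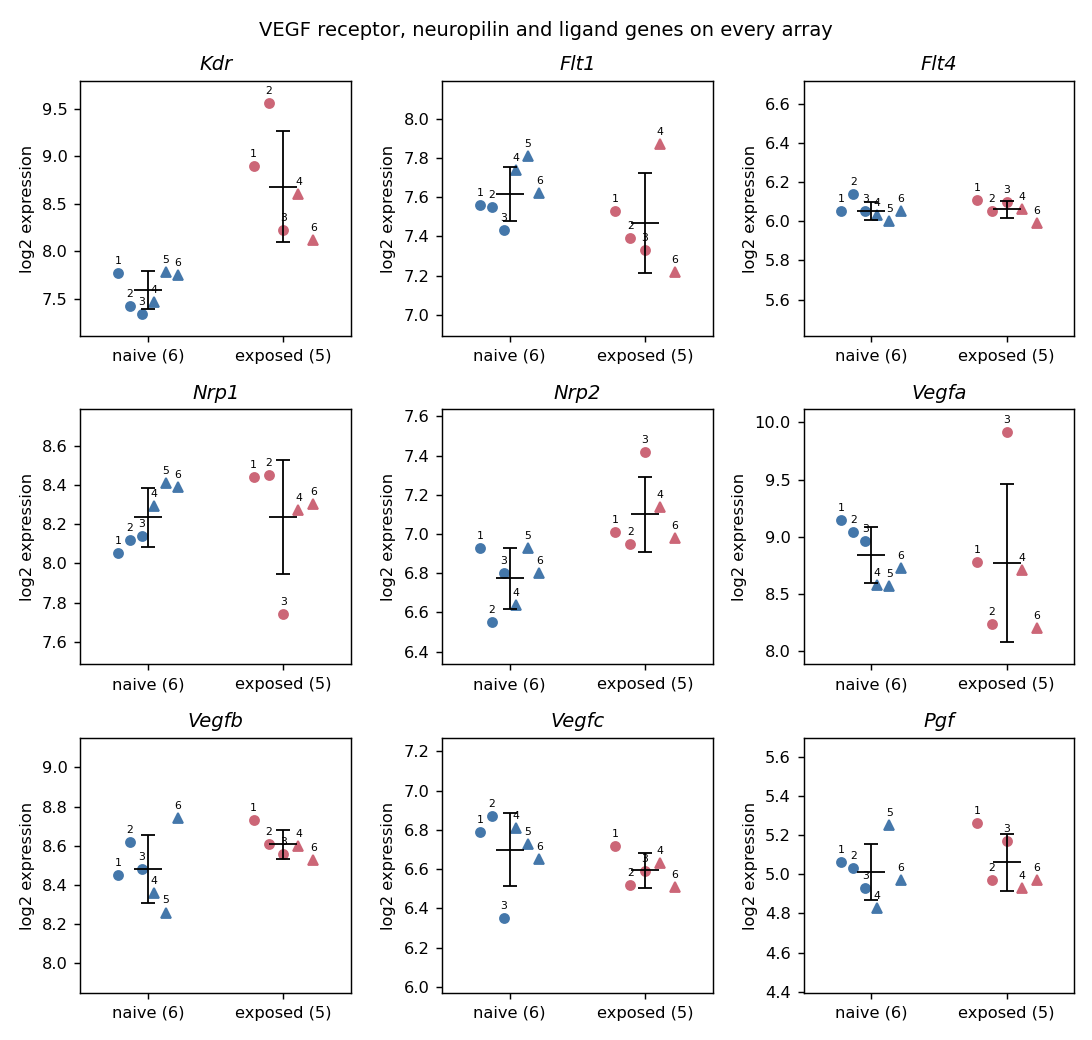
Log2 expression of the 9 genes on every array, naive in blue and exposed in red, with the array number beside each point, circles for arrays 1 to 3 and triangles for arrays 4 to 6. Black bars are group means ± SD, points are spread sideways for legibility, and each panel has its own scale. The exposed points lie above all naive points for Kdr and Nrp2, and for Vegfa and Nrp1 exposed array 3 lies far from the rest.

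An adjusted p under 0.05 in the limma fit is termed a call, and 1.42% of all genes were called, 0.879% higher and 0.546% lower. Of the 9 genes 1 is among them, Kdr, whose call is no test because the list was chosen on this contrast. The groups were fully separate for 2 of the 9 genes, Kdr and Nrp2, both higher, against 2.29% of all genes in either direction and 1.42% of all genes in that direction. The list contains Kdr by choice, so nothing is read from these counts. The median difference of the 9 genes was 0.01, and it was also 0.01 over all genes, with 6 of 9 and 11874 of 22180 above 0. The adjusted p of the other 8 genes lay between 0.133 (Nrp2) and 0.994 (Nrp1).

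With 1 array left out at a time, the Kdr difference ran from 0.87 without exposed array 2 to 1.23 without exposed array 6.

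The other 2 receptors did not pass. Flt1 lay between 7.43 and 7.81 on the naive arrays (median 7.59) and at 7.53, 7.39, 7.33, 7.87 and 7.22 on exposed arrays 1, 2, 3, 4 and 6 (probeset 17455346, chromosome 5). Exposed array 4 was above every naive array and arrays 2, 3 and 6 were below every one. The difference was -0.15 ± 0.11 (SE; adjusted p = 0.655), and -0.25 without exposed array 4 (adjusted p = 0.206).

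Flt4 was nearly constant. It lay between 6.00 and 6.14 in naive and between 5.99 and 6.11 in exposed cells (probeset 17248992, chromosome 11), for a difference of 0.01 with 95% limits of -0.10 to 0.11. Its SD was below that of most genes in both groups. The level is close to 5.60, the 95th percentile of 1105 olfactory receptor genes, a mark for dim genes because dendritic cells are not known to use these receptors.

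The neuropilins differed from each other in pattern. Nrp2, a co-receptor for VEGF-C and semaphorin 3F, lay between 6.55 and 6.93 on the naive arrays (median 6.80) and at 7.01, 6.95, 7.42, 7.14 and 6.98 on exposed arrays 1, 2, 3, 4 and 6 (probeset 17213548, chromosome 1). The groups did not overlap, though the lowest exposed and the highest naive array were only just apart. The difference of 0.33 ± 0.10 (SE; 95% limits 0.12 to 0.53), or 1.25-fold, missed the threshold over all genes (adjusted p = 0.133). Among arrays numbered 1 to 3 it was 0.37, and among those numbered 4 to 6 it was 0.27. Its sign was positive in all 27 fits run.

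Nrp1, a co-receptor for VEGF-A and semaphorin 3A, lay between 8.05 and 8.41 in naive cells (median 8.21) and at 8.44, 8.45, 7.74, 8.27 and 8.30 on exposed arrays 1, 2, 3, 4 and 6 (probeset 17506991, chromosome 8). Exposed array 3 was below every naive array, and arrays 1 and 2 were above. The difference was 0.004 with 95% limits of -0.25 to 0.26, and 0.13 without exposed array 3 (adjusted p = 0.627).

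**Figure D2:**
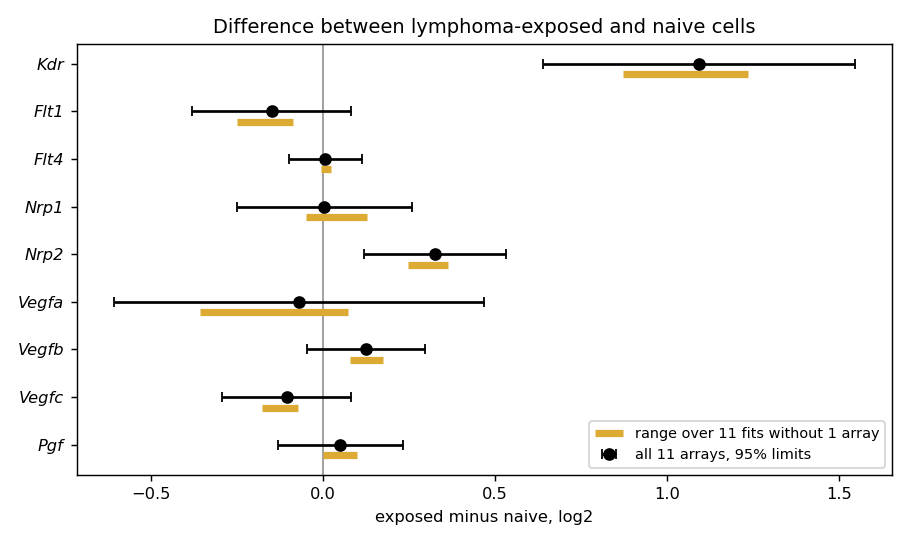
Exposed minus naive difference in log2 expression for each gene. Black points and bars are the fit on all 11 arrays with its 95% limits, and yellow bars span the 11 fits that each left out 1 array. Kdr lies at 1.09 with limits of 0.64 to 1.55, and among the other 8 genes the limits of all but Nrp2 include 0.

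Vegfa, which encodes the ligand of Kdr and Flt1 and is a known target of HIF, had the widest spread of the 9 genes within the exposed group. It lay between 8.57 and 9.15 on the naive arrays (median 8.85) and at 8.78, 8.24, 9.92, 8.71 and 8.20 on exposed arrays 1, 2, 3, 4 and 6 (probeset 17345293, chromosome 17). Exposed array 3 was above and arrays 2 and 6 were below every naive array. The difference was -0.07 ± 0.25 (SE; 95% limits -0.61 to 0.47; adjusted p = 0.953), and -0.36 without exposed array 3 (adjusted p = 0.373). Its exposed SD of 0.69 was 2.82 times the naive SD and above that of 99.6% of all genes.

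The naive arrays of Vegfa were split by number, with means of 9.05 in arrays 1 to 3 and 8.63 in arrays 4 to 6. The number sets are independent of the contrast behind the list. With group in the limma fit, arrays 4 to 6 differed from arrays 1 to 3 by -0.47 ± 0.22 (SE; adjusted p = 0.268). None of the 9 genes passed this test, against 3.30% of all genes (2.64% higher and 0.658% lower in arrays 4 to 6), and the unadjusted p was 0.0553 or more in each.

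The remaining ligands did not pass either, and their intervals include 0. Vegfb, a ligand of Flt1 and the neuropilin Nrp1, lay between 8.26 and 8.74 in naive and between 8.53 and 8.73 in exposed cells (probeset 17362197, chromosome 19; difference 0.12, 95% limits -0.05 to 0.30). Vegfc, the lymphatic ligand of Flt4, lay between 6.35 and 6.87 in naive and between 6.51 and 6.72 in exposed cells (probeset 17501160, chromosome 8; difference -0.11, 95% limits -0.29 to 0.08). All exposed arrays of both genes fell inside the naive range. Exposed cells varied less than naive cells in both, with SD ratios of 0.428 and 0.477.

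Pgf, placental growth factor, was the dimmest against the mark of 5.60 and lay below it on all 11 arrays, between 4.83 and 5.25 in naive and between 4.93 and 5.26 in exposed cells (probeset 17282664, chromosome 12). Its difference was 0.05 with 95% limits of -0.13 to 0.23. The other 8 genes were above the mark on every array. Vegfd, the remaining mammalian ligand of this family and not on the list, was also below the mark, at 4.50 ± 0.25 (SD, n = 6) and 4.48 ± 0.05 (SD, n = 5).

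No pair of the 9 genes gave a correlation across arrays that passed adjustment over the 36 pairs computed. With group means removed, Vegfa and Nrp1 had the largest Pearson correlation over 11 arrays, r = -0.89 (exact permutation within groups, two-sided, p = 0.00705) and rho = -0.78 (exact permutation p = 0.0101). The adjusted p was 0.254 for r and 0.182 for rho. Flt4 and Vegfa had the largest rank correlation, rho = 0.83 (exact permutation p = 0.00493, adjusted p = 0.178). Their r was 0.60 (exact permutation p = 0.0670, adjusted p = 0.603). It was 0.58 without naive array 2 and exposed array 6, and 0.39 with the means of number sets removed as well. For Vegfa and Nrp1 r was -0.92 among the naive arrays alone, -0.89 among the exposed, -0.90 with the means of number sets removed as well, and -0.57 without exposed array 3 and naive array 1, the arrays farthest from the median of Nrp1. Kdr and Vegfa gave r = -0.38 (exact permutation p = 0.461, adjusted p = 0.955) and rho = -0.21 (exact permutation p = 0.602, adjusted p = 0.940). That value was -0.63 without exposed arrays 2 and 6 and -0.68 with number set means removed.

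**Figure D3:**
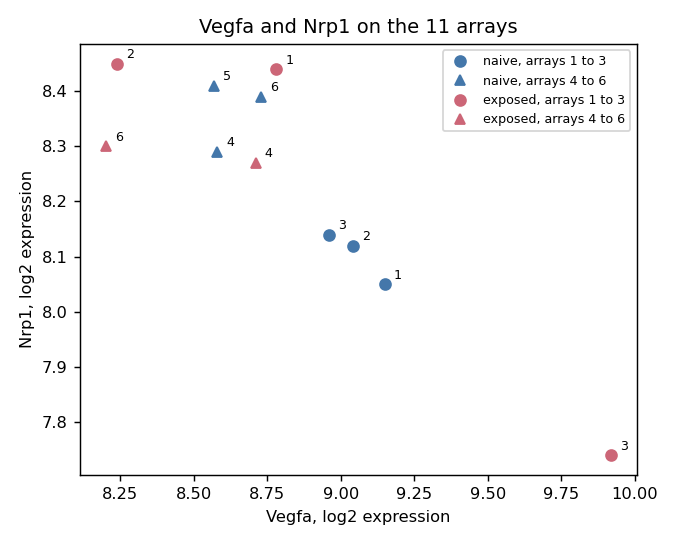
Nrp1 against Vegfa, both in log2 expression, on the 11 arrays, naive in blue and exposed in red, with array numbers beside the points. Exposed array 3 has the highest Vegfa (9.92) and the lowest Nrp1 (7.74), and naive arrays 1 to 3 lie at higher Vegfa and lower Nrp1 than naive arrays 4 to 6.

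Markers of cells that carry VEGF receptors in spleen were read on the same arrays, since a few such cells could add their RNA to a sort. Of 17 blood vessel endothelial markers 0 were called, 14 differences were above 0, and 9 genes had a mean above the dim mark. The endothelial level, the mean of the 17 genes, lay between 5.87 and 6.14 in naive and between 5.98 and 6.52 in exposed cells. It was highest on exposed array 4, the array on which Flt1 was highest, and Cdh5, the junction protein VE-cadherin, reached 8.01 there against 6.64 to 7.07 on the naive arrays. The 8 markers with a mean below the dim mark were Emcn, Sox18, Tek, Erg, Cldn5, Robo4, Ptprb and Tie1. Esam, another of the 17, is also on the list of type 2 dendritic cell markers, so the endothelial level is not read from endothelial genes alone. With the endothelial level as a covariate the Flt1 difference was -0.24 ± 0.07 (SE; adjusted p = 0.114).

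On the 3 exposed arrays whose endothelial level lay within the naive range, Kdr was between 8.12 and 9.56. All 5 exposed arrays were above the highest naive array (7.78) in Kdr, so these 3 had to be. With the endothelial level as a covariate, the Kdr difference was 1.06. The part of endothelial cells in the Kdr values was not tested. The lymphatic markers showed no call either, with 1 of 5 above the dim mark and levels of 5.17 to 5.42 in naive and 5.15 to 5.29 in exposed cells.

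Red pulp macrophage markers gave no call. Of 13 genes 0 were called and 11 were above 0. The exceptions were Adgre1 (-0.18, adjusted p = 0.730) and Cd68 (-0.01, adjusted p = 0.977). The 13 genes had a median difference of 0.71, and all 13 were above the dim mark. Their level lay between 8.27 and 9.37 in naive cells and at 10.80, 9.87, 9.09, 8.97 and 8.88 on exposed arrays 1, 2, 3, 4 and 6. The largest difference was in Cd5l, a secreted macrophage protein, at 1.89 ± 0.47 (SE; adjusted p = 0.0693), which passed without exposed array 6 (2.17, adjusted p = 0.0343). Exposed arrays 1 and 2 had the highest macrophage levels and the highest Kdr, in the reverse order, while naive array 2, the highest naive array at 9.37, had a Kdr of 7.42, below the naive median. With this level as a covariate the Kdr difference was 0.83. On exposed arrays 3, 4 and 6, whose macrophage level lay within the naive range, Kdr was between 8.12 and 8.60. All 5 exposed arrays were above all naive arrays in Kdr, so no subset of them could be otherwise. The part of macrophages in the Kdr values was not tested.

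**Figure D4:**
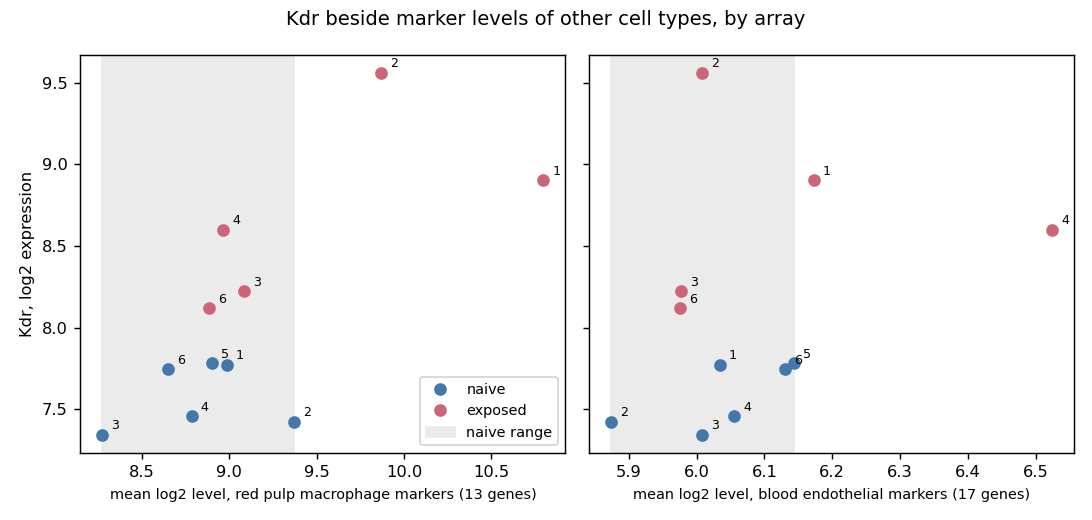
Kdr (log2 expression) against the mean log2 level of 13 red pulp macrophage markers (left) and 17 blood endothelial markers (right) on the 11 arrays, naive in blue and exposed in red, with array numbers. The grey band is the range of the naive arrays, and 3 exposed arrays lie inside it on either side. All 5 exposed arrays, inside the band or not, lie above the highest naive Kdr value of 7.78.

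Among monocyte markers 2 of 9 were called higher and none lower, against 0.879% of all genes called higher and 0.546% lower. Of the 9 differences 7 were above 0, with a median of 0.14. Cx3cr1, the fractalkine receptor, rose by 0.46 ± 0.07 (SE; adjusted p = 0.00866) and kept its call without any single array. The lysozyme gene Lyz2 rose by 0.50 ± 0.11 (adjusted p = 0.0355) and lost its call without any 1 array except exposed array 2. The monocyte level ranged from 9.06 to 9.39 in naive and from 9.10 to 9.92 in exposed cells, highest on exposed arrays 1 and 2. Its part in the Kdr values was not tested.

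The partners and carriers of VEGF signals were then examined. Of 12 class 3 semaphorins and plexins none was called, and the largest difference was in Plxna1, a plexin that pairs with neuropilins, at 0.73 ± 0.17 (SE; adjusted p = 0.0573). The naive mean of 7.23 ± 0.18 (SD, n = 6) stood against an exposed mean of 7.96 ± 0.47 (SD, n = 5), and 4 of 5 exposed arrays exceeded the naive range. It passed without exposed array 1 (0.55, adjusted p = 0.0391) or 6 (0.87, adjusted p = 0.0171). With the mean of its probesets in place of the brightest, the Plxna1 difference was 0.50 (adjusted p = 0.122). With the macrophage level as a covariate it was 0.46. Of 30 measured signal carriers downstream of the receptors none was called, 15 were above 0 and the median difference was 0.01. The adaptor gene Gab1 had the largest difference, 0.34 ± 0.08 (adjusted p = 0.0728), and passed without exposed array 6 (adjusted p = 0.0250). It too was dim, at 4.99 in naive cells.

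None of the 9 oxygen-sensing genes upstream of Vegfa was called. Hif1a, the oxygen-regulated subunit of HIF, differed by 0.01 (adjusted p = 0.973), and Egln3, a HIF prolyl hydroxylase, by 0.21 (adjusted p = 0.130). Egln3 was below the dim mark, at 4.61 in naive and 4.82 in exposed cells. Of 17 other HIF target genes 2 were called higher and none lower, against 0.879% of all genes called higher and 0.546% lower. The median difference of the 17 was -0.01, with 7 above 0. Slc2a3 had the largest difference below 0, at -0.60 ± 0.15 (SE; adjusted p = 0.0737). On 4 of 5 exposed arrays it was below all naive arrays. Adm, which encodes the vessel-relaxing peptide adrenomedullin, rose by 0.76 ± 0.14 (SE; adjusted p = 0.0174), from 6.23 ± 0.13 (SD, n = 6) to 6.99 ± 0.36 (SD, n = 5), and lost its call without exposed array 2 (0.71, adjusted p = 0.0571). Pfkfb3, a regulator of glycolysis, rose by 0.28 ± 0.06 (adjusted p = 0.0400), and kept its call in 2 of the 11 fits without 1 array, those without naive array 2 or exposed array 6. On exposed array 3, where Vegfa stood at 9.92, Adm was at its highest, 7.42. The level of the 17 targets there was 8.52, at the top of the naive range of 8.45 to 8.52. That level was highest on exposed array 2, at 8.54, where Vegfa was 8.24. The part of HIF in the Vegfa values was not tested.

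Other vessel growth genes gave no call in 20 genes, with 13 above 0 and a median difference of 0.03. Thbs1, the matrix protein thrombospondin 1, which restrains vessel growth, had the largest difference, -1.17 ± 0.27 (SE; adjusted p = 0.0537). It lay between 7.90 and 8.72 in naive cells and at 7.68, 6.33, 7.93, 6.89 and 6.48 on exposed arrays 1, 2, 3, 4 and 6, so 4 of 5 exposed arrays were below all naive arrays. It passed without exposed array 1 (-1.33, adjusted p = 0.0345) or 3 (-1.39, adjusted p = 0.0277).

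The receptors closest to the VEGF receptors in structure, the class III receptor tyrosine kinases, also gave no call in 5 genes. Csf1r, the receptor for macrophage colony-stimulating factor, was 0.41 ± 0.15 (SE) higher (adjusted p = 0.249). All 5 exposed arrays were above all naive arrays, as they were for 1.42% of all genes. The Csf1r difference was 0.24 without exposed array 1, the array with the highest macrophage level, and 0.10 with the macrophage level as a covariate. The part of macrophages in the Csf1r values was not tested. Kit, the stem cell factor receptor and a neighbour of Kdr on chromosome 5, had a naive mean of 11.27 ± 0.09 (SD, n = 6) and an exposed mean of 10.99 ± 0.20 (SD, n = 5). Its difference was -0.28 ± 0.08 (SE; adjusted p = 0.122), which passed with number set as a block (-0.26, adjusted p = 0.0383). Of the 3 measured protein-coding genes on either side of Kdr, namely Gsx2, Pdgfra, Kit, Srd5a3, Tmem165 and Clock, none was called, and their differences ran from -0.28 in Kit to 0.17 in Gsx2.

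The genes most like Kdr from array to array were sought among the 12618 other genes with a mean above the dim mark, by Pearson correlation over 11 arrays with group means removed. They were picked by this value, so no p is given. The highest were Septin9, a cytoskeletal GTPase (r = 0.94, rho = 0.85), Fcrl5, an Fc receptor-like protein of B cells (0.91, 0.83), Ltb4r1, a leukotriene B4 receptor (0.91, 0.76), Lifr, the leukaemia inhibitory factor receptor (0.91, 0.95), and the cyclin Ccnd2 (0.91, 0.81). The most opposite were the kinase Stk32c (r = -0.94, rho = -0.97), the MHC class II chaperone H2-DMb1 (-0.93, -0.84) and Dtx1, a regulator of Notch (-0.92, -0.92).

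Without exposed arrays 2 and 6, on which Kdr lay farthest from its group, r was 0.86 for Septin9, 0.93 for Lifr and 0.73 for Fcrl5 and Ltb4r1. Fcrl5 had a naive mean of 6.83 ± 0.17 (SD, n = 6) against 7.83 ± 0.75 (SD, n = 5) when exposed, differing by 0.99 ± 0.26 (SE; adjusted p = 0.0840), and none of these 8 genes was called between the groups. The list itself was unsteady, since 1 of its 5 highest genes was shared when number set means were removed too, 1 with Spearman correlation and 2 with group means kept.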

How the data were processed

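Per the labels, RNA from sorted splenic dendritic cells was labelled with a whole-transcript kit. The deposited values are log2 expression per probeset and array, made with RMA per the submitters' processing notes. RMA corrects background, normalises arrays to each other and summarises probes, so differences can be compressed. Levels of different genes were compared only through the dim mark, which is a rough guide. Version, build and the reason why 7329 of 41801 probesets are blank are not given in the sources used here.

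A platform table named 1 gene for 23521 probesets. For genes with several probesets the one with the highest mean was used, which left 22180 genes. Exposed minus naive differences came from limma 3.58.1 (eBayes, trend) in R 4.3.3, with Benjamini-Hochberg adjustment over all genes, called under 0.05. On simulated data of 22180 genes limma recovered 99% of 100 genes changed by 1 and 73% of 100 changed by 0.5 (log2). Of its 188 calls there 16 were false. On the real arrays Cd5l (1.89) and Thbs1 (-1.17), which spread widely among the exposed arrays, were not called. A missing call in such a gene therefore does not exclude a change of 1 or more. Array medians lay between 5.53 and 5.61, and the number of arrays limits the precision.

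The members and lists were chosen with earlier results of these data known. Named genes are all members, the called genes of each list or else its largest difference, 5 most and 3 least Kdr-like genes, and 3 measured neighbours on each side of Kdr. Vegfd, Hif1a, Slc2a3, Foxp3, Cd4, Cd3d, Cd3e, Cd3g, Ikzf4, Adgre1, Cd68, Clec10a, Esam and the dim endothelial markers fall outside this rule. They were named after their values were seen. Lists cover VEGF partners, carriers, oxygen sensing, HIF targets, other vessel genes, related kinases and cell markers. Alternatives were other limma settings, 3 rescalings, a dim filter, mean probesets, blocks, marker covariates and each array left out. Replicate numbers were not used to pair arrays.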

Additional observations from a re-analysis of the deposited data

Results flagged for a closer look

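In 5 of 56 groups of arrays examined, 1 array lay farther from the others than the 95% critical value of Dixon's gap test, which chance passes in about 1 of 20 groups. Nrp1 on exposed array 3 was at 7.74, where the other exposed arrays lay between 8.27 and 8.45. Flt4 on naive array 2 was at 6.14, where the others lay between 6.00 and 6.05. The mean level of the semaphorin and plexin genes was 5.61 on exposed array 6, against 5.74 to 5.79 on the others. The mean level of the oxygen-sensing genes was 7.45 on exposed array 1, against 7.53 to 7.54. The mean level of the lymphatic endothelial markers was 5.15 on exposed array 6, against 5.27 to 5.29.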

How the results depend on the processing

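The Kdr difference was positive in all 27 fits, from 0.70 in arrays 4 to 6 alone to 1.38 in arrays 1 to 3 alone, and from 0.87 to 1.23 with 1 array left out. The number of members called, 1 on all arrays, was 0 with the replicate block by the characteristic's number, with the macrophage level as a covariate and in arrays 1 to 3 or 4 to 6 alone, and between 0 and 1 with 1 array left out. The 316 genes called became 182 with that replicate block, 617 with number set as a block, 194 with the macrophage covariate, 11 in arrays 1 to 3 alone and 5 in arrays 4 to 6 alone, and between 104 (without exposed array 2) and 395 (without exposed array 6) with 1 array left out. The 2 short fits used fewer arrays; otherwise the cause was not tested. With the replicate block the Kdr difference was 1.13 by either numbering, the value without naive array 5 (title numbers) or 6 (characteristic), which have no partner there. Same-numbered arrays correlated at 0.0880 to 0.231 after group means were removed, and 2 of 5 exposed arrays correlated best with their own number, so the numbers were not taken as pairs. Rescaling put the median difference of all genes between -0.03 and 0.00 and left the Kdr difference between 1.06 and 1.08.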

Other observations

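The remaining marker lists describe the sort. A list of 6 dendritic cell genes, among them those of CD11c and MHC class II, gave no call, and Itgax, which encodes CD11c, had the largest difference (-0.14, adjusted p = 0.359). Type 1 dendritic cell markers gave no call in 7, with Irf8 the largest (0.17, adjusted p = 0.208). Of 8 type 2 markers 2 were called lower, against 0.546% of all genes called lower. These 2 were the lectin genes Cd209a (-1.02, adjusted p = 0.00345) and Clec4a4 (-0.43, adjusted p = 0.0250). With the mean of its probesets the Cd209a difference was -0.73 (adjusted p = 0.00228). Of the 8 differences 2 were above 0, the larger in Clec10a (0.27, adjusted p = 0.105). Cd209a kept its call in every fit without 1 array, and Clec4a4 lost it without naive array 1, 2, 4 or 6 or exposed array 2, 3 or 4.

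Lists of other cells gave no call: 7 plasmacytoid dendritic cell genes (largest Klk1, 0.80, adjusted p = 0.354), 7 T cell and regulatory T cell genes (Ctla4, 0.91, adjusted p = 0.0857), 6 B cell genes (Cd79a, 0.36, adjusted p = 0.452), 9 neutrophil genes (Ly6g, 0.21, adjusted p = 0.377), 6 platelet genes (Pf4, 0.14, adjusted p = 0.645) and 7 stromal genes (Des, 0.10, adjusted p = 0.762). Only 2 of the 9 neutrophil, 2 of the 6 platelet and 3 of the 7 stromal genes had a mean above the dim mark. Ly6g, Pf4 and Des were below it. The T cell list is of interest because Nrp1 marks mouse regulatory T cells. The level of this list was 6.21 to 6.41 in naive and 6.43 to 6.67 in exposed cells. Beside Ctla4, it includes Cd3g (0.34, adjusted p = 0.169), Cd3e (0.25, adjusted p = 0.256) and Ikzf4 (0.25, adjusted p = 0.226). Foxp3, which defines regulatory T cells, differed by 0.06 (adjusted p = 0.866). Cd3d differed by -0.07 (adjusted p = 0.748) and Cd4, also carried by type 2 dendritic cells, by -0.48 (adjusted p = 0.107). The part of T cells in the Nrp1 values was not tested.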
